A study of Mus musculus with 4 samples.

Results

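The genes described here are 31 genes of glycolysis and of the cellular response to low oxygen, of 32285 genes in the count matrices. They were taken as a list, from glucose transporters through the glycolytic enzymes to lactate dehydrogenase, monocarboxylate transporters and targets of hypoxia-inducible factor. No rule on measured values picked them, but earlier results of these data were known when the list was chosen. Each gene and the sum of the 31 were measured as CPM, the unique molecular identifiers (UMIs, 1 per captured RNA molecule) of the gene for every 1000000 UMIs of the same cell class and library. A cell class is a set of clusters given a name from marker genes. Aldoa was listed under 2 identifiers, the second of which had 2 UMIs in all cells and was left out of its values.

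The libraries came from droplet single-cell RNA sequencing of C57BL/6J mice, female and 8 to 16 weeks old, with 1 library for each of 4 groups. Bone marrow (BM) and spleen were taken from control mice, giving the libraries called CBM and CS, and from mice that carried a tumor, giving TBM and TS. Tumors grew from PyMT-B6, a transplanted line made from mammary tumors of MMTV-PyMT mice, in which the MMTV promoter drives the polyoma middle T oncogene in mammary epithelium. All tissues were digested with collagenase and DNase, depleted of lineage-positive cells and sorted, and the sorted populations were mixed at equal ratios, so shares of cells are those of the mixture. The number of mice behind a library is not given in the sources used here. With 1 library per group there was no replicate, no test and no p-value, and each interval is an exact 95% interval that covers counting error only.

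Glycolysis splits glucose into pyruvate in the cytosol, and lactate dehydrogenase then turns pyruvate into lactate and restores the cofactor the pathway needs. Hypoxia-inducible factor is degraded when oxygen is plentiful, and when oxygen is scarce it binds short DNA motifs beside many glycolytic genes and raises their transcription. Hematopoietic stem cells are known for a reliance on glycolysis, and tumor-bearing animals often make blood cells in the spleen.

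In all, 16261 barcodes with at least 1000 genes and at most 10% mitochondrial UMIs were kept, 3497, 4340, 3236 and 5188 in CBM, TBM, CS and TS. Libraries held 101811035 to 176094297 UMIs, the median UMIs per cell were 13738, 14386, 26322.5 and 26808 in CBM, TBM, CS and TS, and 58.1% to 79.4% of the UMIs were in these cells. Clustering without the 31 genes gave 34 clusters, of which 29 were named and 5, with 2605 cells, were not. The names were rebuilt here from markers and need not match those of the study. Each pair of libraries shared 2 to 9 cell barcodes, against 1.67 to 3.31 for lists of these sizes. No doublets were removed, and the doublet caller Scrublet marked 38, 50, 6 and 101 cells in CBM, TBM, CS and TS. The 6 in CS are few for 3236 cells, and whether the caller worked there was not tested.

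The summed level of the 31 genes differed more between cell classes than between libraries. Among the named classes it was highest in granulocyte-monocyte progenitor-like cells, with 4905, 6330.1, 4728.5 and 6412 CPM in CBM, TBM, CS and TS, and in the 55 neutrophil precursor-like cells of TBM and the monocyte-like cells of the BM. The unnamed cluster 8, led by Mpo, F13a1 and Ms4a6c, was near these at 4752, 5949, 5074 and 6374 in CBM, TBM, CS and TS. In CS it was above the granulocyte-monocyte progenitor-like cells. Hemoglobin-rich erythroid-like cells had the lowest sums, from 1127 in CBM to 1437 in TS, in a class where hemoglobin took 30.0%, 25.5%, 25.0% and 14.7% of the UMIs of CBM, TBM, CS and TS. Early erythroid-like cells lay between, at 2537, 2898, 2828 and 3105 CPM in the same order.

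**Figure D1:**
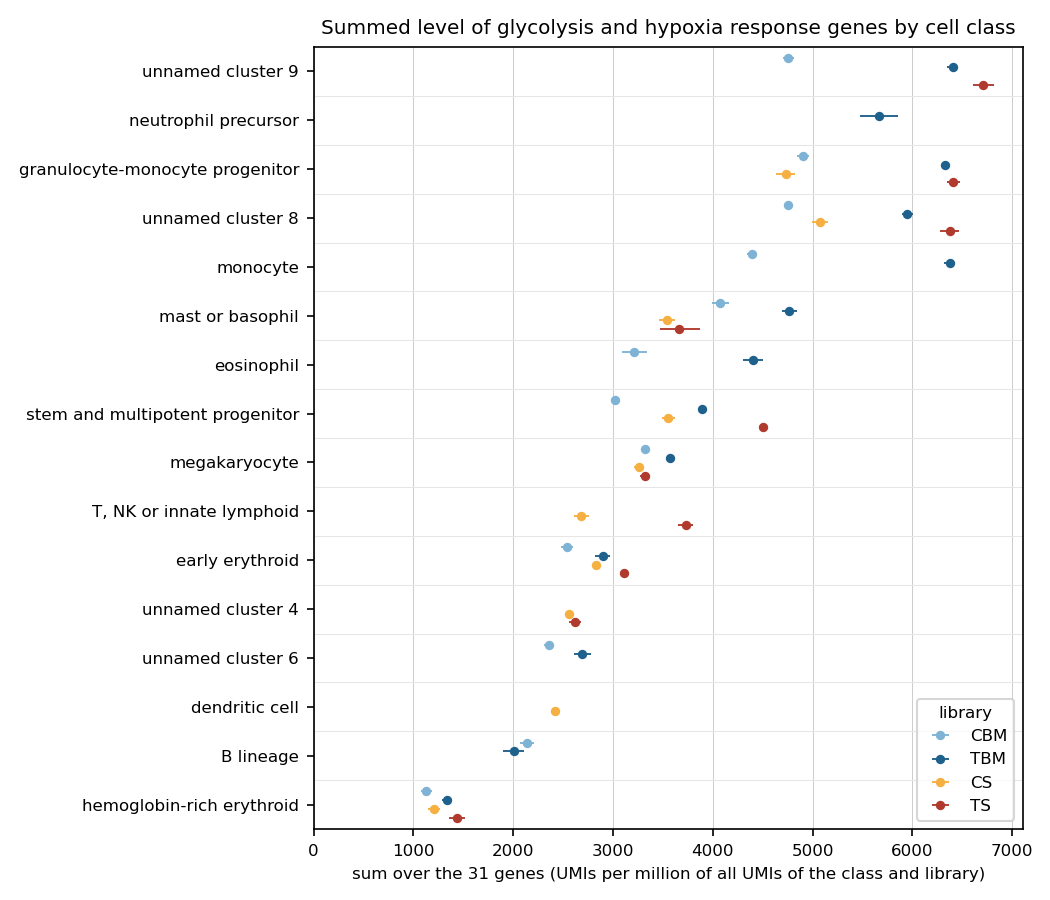
Sum of the 31 genes in CPM of all UMIs of the class and library (horizontal axis, from 0) for each cell class or unnamed cluster with at least 50 cells, 1 point per library with its exact 95% Poisson interval. The tumor-bearing points lie to the right of the control points of the same tissue in most classes, as in stem and multipotent progenitor-like cells, where TS reached 4499 and CS 3552.

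The stem and multipotent progenitor-like class joined 3 clusters with 808, 920, 148 and 728 cells in CBM, TBM, CS and TS. Of its defining markers, Hlf was at 236 CPM against 8.24 in the other cells, Mecom at 49.5 against 2.66 and Cd34 at 348 against 39.9, whereas Mllt3 was at 34.3 against 45.0. The clusters were filled unevenly. The cluster led by Hlf held 681, 715, 64 and 70 cells of CBM, TBM, CS and TS, the cluster led by Cxcl2, Dusp2 and Ly6a held 2, 7, 55 and 388, and the cluster led by Cd34, Pimreg and Dntt held 125, 198, 29 and 270. Most of the TS cells of the class were therefore in other clusters than most of the CBM and TBM cells.

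In these cells the sum of the 31 genes was higher in each tumor-bearing library than in the control of the same tissue. It was at 3019, 3895, 3552 and 4499 CPM in CBM, TBM, CS and TS, so that CBM was lowest and TS highest. Its largest parts were Gapdh, at 22.6%, 26.0%, 25.7% and 28.0% of the sum, and Ldha, at 10.1%, 12.6%, 10.3% and 14.5%. The sum thus follows the abundant genes most, and ratios of single members are given below. The log2 ratio of the sum was 0.34 for TS over CS (interval 0.31 to 0.37) and 0.37 for TBM over CBM (0.35 to 0.39). Between tissues it was 0.23 for CS over CBM (0.21 to 0.26) and 0.21 for TS over TBM (0.19 to 0.22). Within the Hlf-led cluster alone, TS over CS was 0.11 and TS over TBM was 0.0049. TS over CS was 0.13 within the Cxcl2-led cluster (interval 0.08 to 0.17, with 388 TS and 55 CS cells) and 0.44 within the Cd34- and Pimreg-led cluster, which held 29 CS cells.

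The steps of the pathway did not all share the higher sum. Genes from aldolase to pyruvate kinase, which cleave the sugar and harvest its energy, summed to 1713, 2350.4, 2141 and 2882 CPM in CBM, TBM, CS and TS. The genes of lactate and pyruvate fate summed to 439, 617, 483 and 766, and the steps from hexokinase to phosphofructokinase to 507, 579, 564 and 585. The sum of both glucose transporters, most of it Slc2a3, was lower in each tumor-bearing library, at 116, 94.7, 127 and 55.0, with a log2 ratio of TS over CS of -1.20 (interval -1.38 to -1.02). The 7 hypoxia response genes summed to 214, 222, 203 and 182, with a TS over CS ratio of -0.16 (-0.28 to -0.03) and a TBM over CBM ratio of 0.05 (-0.02 to 0.13). Bnip3l was the largest part of this sum, at 115, 106, 93.0 and 83.1.

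**Figure D2:**
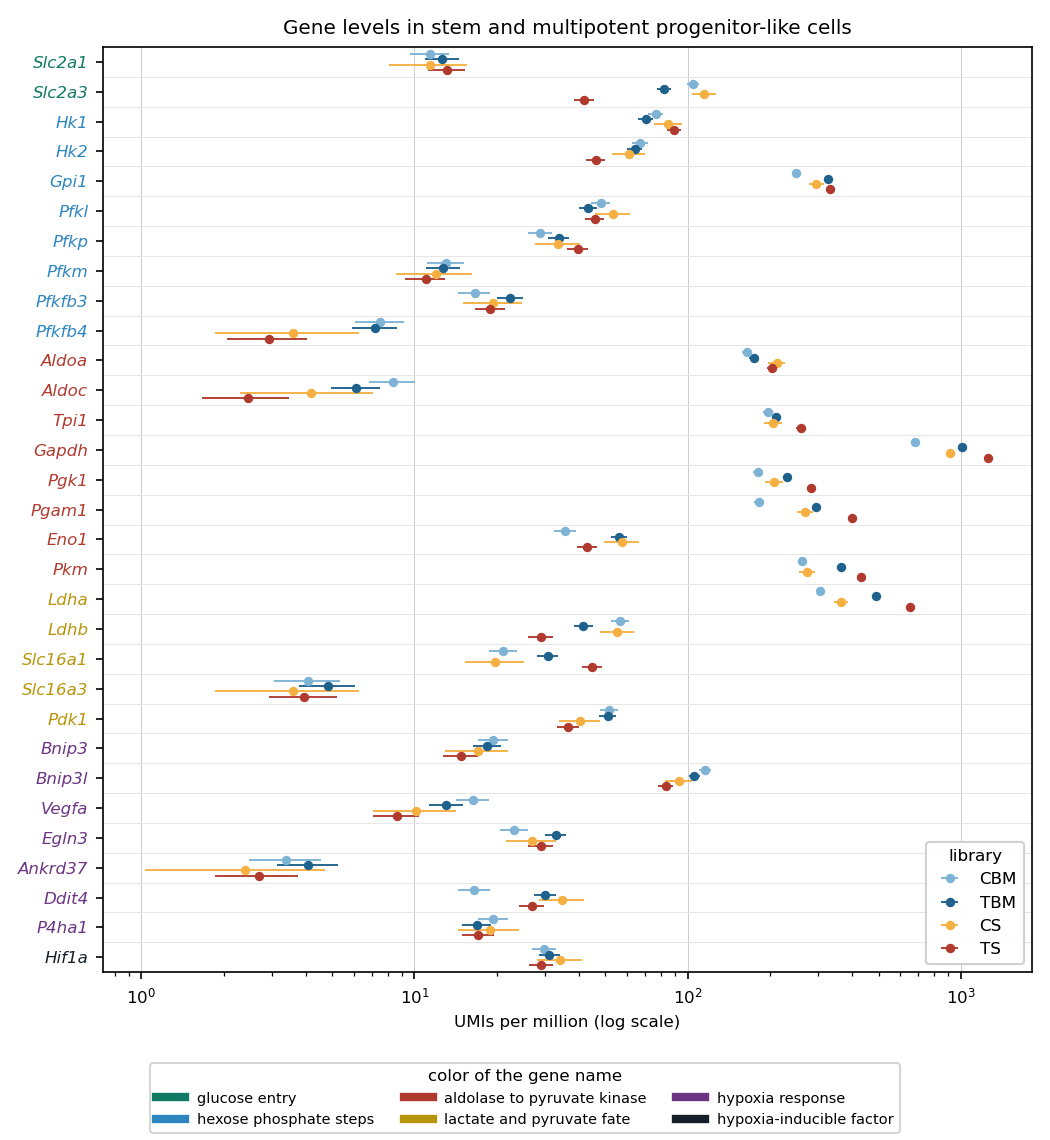
Level of each of the 31 genes in stem and multipotent progenitor-like cells in CPM (log scale), 1 point per library with its exact 95% Poisson interval, with gene names colored by role. Slc2a3 and Ldhb are lowest in TS, at 41.8 and 29.0, and Ldha is highest there, at 651.

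Of the 31 genes, 21 passed the level filter in TS over CS in the stem class, which asked for a mean of 20 CPM over both libraries and 50 UMIs together. Pkm, Ldha and Slc16a1 were at least 1.5-fold higher in TS, which is 3 of 21 where 4.25% of all 6188 genes tested were. Slc2a3 and Ldhb were at least 1.5-fold lower, which is 2 of 21 where 4.99% of all genes were. The median log2 ratio of the members was 0.07, beside 0.01 for all genes tested. Shares of all genes past 1.5-fold are given here for whole classes only, so members named within single clusters have no background beside them.

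Ldha encodes the lactate dehydrogenase subunit that favors the making of lactate, and lies at chr7:46841475-46855627 (mm10). It was at 306, 489, 364 and 651 CPM in CBM, TBM, CS and TS, which is 1.79-fold higher in TS than in CS (log2 ratio 0.84, interval 0.75 to 0.93). The level in barcodes that held free RNA was 348, 596, 536 and 693 in the same order. The ratio was 0.33 in the Hlf-led cluster alone and 1.18 in the Cd34- and Pimreg-led cluster alone, which held 29 CS cells. It was 0.32 when cells with at least 350 genes were clustered anew. In the Cxcl2-led cluster, which held 388 TS cells, Ldha was not past 1.5-fold. Of these settings only the Cd34- and Pimreg-led cluster had Ldha past 1.5-fold.

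Ldhb, at chr6:142490249-142507957, encodes the other subunit of lactate dehydrogenase, which favors the use of lactate. Its level was 56.6, 41.5, 55.3 and 29.0 CPM in CBM, TBM, CS and TS. Both control libraries were near each other and both tumor-bearing libraries were lower, TS most, by 1.91-fold against CS (log2 ratio -0.93, interval -1.19 to -0.67). In TBM over CBM the log2 ratio was -0.45 (-0.60 to -0.29). In the Hlf-led cluster alone TS over CS was -0.58 (-1.24 to 0.05), just under 1.5-fold, with 31 UMIs in TS and 71 in CS. It was -0.72 (-1.18 to -0.23) in the Cxcl2-led cluster, which held 388 TS cells, and -0.96 (-1.39 to -0.52) in the Cd34- and Pimreg-led cluster.

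Slc16a1, at chr3:104638668-104658462, encodes a monocarboxylate transporter that carries lactate across the plasma membrane. It was at 21.2, 30.7, 19.7 and 44.8 CPM in CBM, TBM, CS and TS, 2.27-fold higher in TS than in CS (log2 ratio 1.18, interval 0.81 to 1.57). It was past 1.5-fold in TS over CS in each of the 3 clusters of the class taken alone, with 22 UMIs in CS and 30 in TS in the Hlf-led one. Its level in free RNA was 34.8, 46.9, 31.8 and 44.9, at or above that in the cells, and with 10% of ambient RNA subtracted the ratio of TS over CS was 1.28.

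Slc2a3 encodes a glucose transporter of high affinity and lies at chr6:122727809-122801640. Its level was 105, 82.0, 115 and 41.8 CPM in CBM, TBM, CS and TS. TS was thus 2.75-fold lower than CS (log2 ratio -1.46, interval -1.65 to -1.27) and 1.96-fold lower than TBM (-0.97, -1.12 to -0.82). The lower level in TS than in CS was found in each cluster of the class, at 103 against 168 in the Hlf-led cluster, 61.0 against 103 in the Cxcl2-led cluster and 22.4 against 75.0 in the Cd34- and Pimreg-led cluster. TS over TBM was within 1.5-fold in both clusters compared, at -0.15 (-0.52 to 0.20) in the Hlf-led and -0.54 (-0.86 to -0.23) in the Cd34- and Pimreg-led cluster. The other glucose transporter of the list, Slc2a1, was under the filter at 11.4 to 13.1 in all 4 libraries.

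Pkm, at chr9:59656368-59679375, encodes the pyruvate kinase of most tissues outside liver and red cells. It was at 263, 364, 273 and 432 CPM in CBM, TBM, CS and TS. Its log2 ratio was 0.66 in TS over CS (interval 0.56 to 0.76) and 0.47 in TBM over CBM (0.41 to 0.53), and the first was 0.47, under 1.5-fold, in the Hlf-led cluster alone and also when cells with at least 350 genes were clustered anew. In TS over CS Pkm was not past 1.5-fold in the Cxcl2-led cluster either, and was past it in the Cd34- and Pimreg-led cluster.

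For Ldha, Ldhb and Slc16a1, the lactate genes whose levels differed most between tumor-bearing and control stem-class cells, and for the glycolytic enzyme gene Pgam1, described after them, the 250 bases before a RefSeq transcription start (build GRCm38.p6, which is mm10) are shown so that the motif of hypoxia-inducible factor can be seen. The motif was searched as ACGTG or GCGTG on both strands. Capitals mark its matches, and CACGTG, the E-box, holds ACGTG on each strand. The window of Ldha lies at chr7:46845554-46845803 on the plus strand, within the gene as annotated but in no exon, and holds 5 matches. Ldha has another listed start, whose window at chr7:46846832-46847081 is not shown and holds 1 match. The window of Ldhb, at chr6:142507958-142508207 on the minus strand, holds 1, that of Slc16a1, at chr3:104638414-104638663 on the plus strand, holds 4, and that of Pgam1, at chr19:41911621-41911870 on the plus strand, holds 3. The last 3 overlap no annotated exon.
Ldha: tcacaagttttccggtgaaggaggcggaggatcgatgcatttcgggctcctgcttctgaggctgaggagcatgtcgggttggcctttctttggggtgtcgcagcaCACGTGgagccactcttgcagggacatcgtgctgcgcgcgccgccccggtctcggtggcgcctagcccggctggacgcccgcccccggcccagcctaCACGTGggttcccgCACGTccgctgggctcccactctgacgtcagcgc
Ldhb: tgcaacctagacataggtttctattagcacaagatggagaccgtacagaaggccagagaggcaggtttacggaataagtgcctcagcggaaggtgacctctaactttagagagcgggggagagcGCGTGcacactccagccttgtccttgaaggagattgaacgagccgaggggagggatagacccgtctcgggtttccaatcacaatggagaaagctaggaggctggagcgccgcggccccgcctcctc
Slc16a1: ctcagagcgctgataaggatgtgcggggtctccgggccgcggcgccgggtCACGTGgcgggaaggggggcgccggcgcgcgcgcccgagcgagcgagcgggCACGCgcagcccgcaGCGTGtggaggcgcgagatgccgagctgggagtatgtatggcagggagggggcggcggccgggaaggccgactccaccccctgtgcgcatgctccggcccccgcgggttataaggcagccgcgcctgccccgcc
Pgam1: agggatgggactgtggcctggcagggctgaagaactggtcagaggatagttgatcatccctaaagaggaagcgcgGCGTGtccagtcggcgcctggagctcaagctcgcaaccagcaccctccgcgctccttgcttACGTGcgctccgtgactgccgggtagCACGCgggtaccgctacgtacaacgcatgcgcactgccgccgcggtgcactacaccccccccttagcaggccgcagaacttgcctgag

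RefSeq promoter entries were found for 29 of the 31 genes, and Slc2a3 and Bnip3l had none. In windows of 300 bases, from 250 before to 50 after a start, 35 of 43 windows of these genes held the motif, 81.4%, and 27 of 29 genes had it in at least 1 window. Among all 32851 windows of 27025 genes, 43.8% of windows and 46.7% of genes held it. The windows of the list also held more CG dinucleotides, with a median of 20 against 7 in all windows, and the motif contains a CG. A match is a string of letters and says nothing of binding.

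In TBM over CBM, 4 of 21 members were at least 1.5-fold higher in the stem class, Pgam1, Eno1, Ldha and Ddit4, where 1.82% of all genes tested were, and 0 of 21 were lower, where 1.33% were. Pgam1, at chr19:41911923-41918660, encodes phosphoglycerate mutase, and was at 182, 294, 269 and 401 CPM in CBM, TBM, CS and TS. Its log2 ratio was 0.69 in TBM over CBM (interval 0.62 to 0.76) and 0.57 in TS over CS (0.47 to 0.68), just under 1.5-fold in the second. Gapdh, the dehydrogenase in the middle of the pathway, was at 682, 1013, 912 and 1258, with a ratio of 0.57 in TBM over CBM (0.53 to 0.61), also just under. The median ratio over the 21 members was 0.23, beside 0.02 for all genes tested. In the Hlf-led cluster alone, which held 681 CBM and 715 TBM cells, Ddit4 was the 1 member past 1.5-fold, at 0.93, and Pgam1, Eno1 and Ldha were under it, at 0.48, 0.50 and 0.54.

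Eno1 and Ddit4 did not follow the same order in both tissues. Eno1, at chr4:150236721-150248879, encodes the main enolase of blood cells, and was at 35.5, 56.1, 57.4 and 42.9 CPM in CBM, TBM, CS and TS, with a log2 ratio of 0.66 in TBM over CBM and -0.42 in TS over CS. Reads of its near-identical copy Eno1b can be split from it in counting. The share of Eno1b in the UMIs of both was 11.5%, 5.86%, 6.80% and 14.1% in the stem class, and likewise high in CBM and TS and low in TBM and CS in early erythroid-like and megakaryocyte-like cells, so the levels of Eno1 are uncertain. Both genes together were at 40.2, 59.6, 61.6 and 49.9, which is under 1.5-fold in TBM over CBM and in TS over CS. Ddit4, at chr10:59949669-59951834, encodes an inhibitor of mTORC1 signaling that hypoxia and other stresses induce. It was at 16.5, 30.2, 34.7 and 26.9, lowest in CBM, with a ratio of 0.87 in TBM over CBM (interval 0.63 to 1.11) and -0.37 in TS over CS (-0.68 to -0.05).

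Between tissues, in comparisons that share these libraries, few members were past 1.5-fold in the stem class. In CS over CBM, Eno1 (log2 ratio 0.69, interval 0.44 to 0.94) and Ddit4 (1.07, 0.73 to 1.40) were higher, 2 of 21 where 2.11% of all genes were, and 0 of 21 were lower, where 1.06% were. In the Hlf-led cluster alone neither was past 1.5-fold, with Eno1 at 0.29 (-0.19 to 0.74) and Ddit4 at 0.49 (-0.16 to 1.08). In the Cd34- and Pimreg-led cluster, with 29 CS cells, both were past it, and so were Aldoa, Pgam1 and Ldhb, all higher in CS. In TS over TBM, 0 of 22 members were higher, where 1.5% of all genes were, and Slc2a3 alone was lower, 1 of 22 where 1.97% were. That call was held in neither cluster compared: in the Hlf-led one, with 70 TS cells, Slc16a1 and P4ha1 were higher and Hk2 and Eno1 lower, and in the Cd34- and Pimreg-led one 0 members were past 1.5-fold. The shares of all genes given here are those of the whole class and not of these clusters. Under the filter, Aldoc, an aldolase, was at 8.34, 6.12, 4.19 and 2.45 CPM in CBM, TBM, CS and TS, and Pfkfb4, a regulator of phosphofructokinase, at 7.49, 7.18, 3.59 and 2.93, both lowest in TS.

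**Figure D3:**
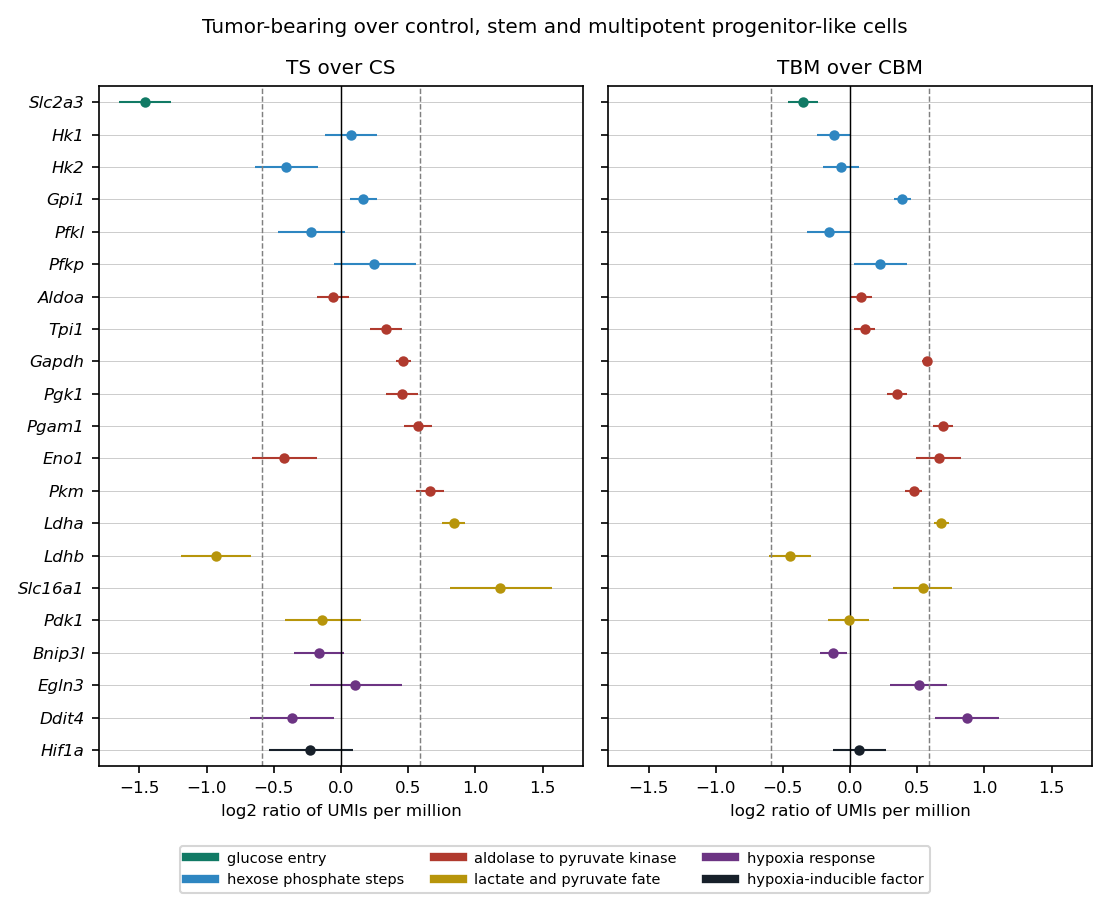
Log2 ratio of CPM for the members that passed the level filter, TS over CS at left and TBM over CBM at right, in stem and multipotent progenitor-like cells, with exact 95% conditional intervals and dashed lines at 1.5-fold. Ldha lies right of the dashed line in both panels, at 0.84 and 0.68, and Slc2a3 is farthest left in TS over CS, at -1.46, and Ldhb in TBM over CBM, at -0.45.

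The other members that passed the filter were within 1.5-fold of the control of their tissue in the stem class as a whole. In single clusters Hk2 (-1.10) and Pfkl (-0.72) were lower past 1.5-fold in TS over CS in the Hlf-led one, and Aldoa (0.74), Gapdh (0.66) and Egln3 (0.74) were higher in TBM over CBM in the Cd34- and Pimreg-led one. The hexokinases Hk1 and Hk2, which trap glucose in the cell, were at 76.4, 70.3, 84.9 and 89.2 CPM and at 67.2, 64.0, 61.0 and 46.0 CPM in CBM, TBM, CS and TS. Gpi1, glucose phosphate isomerase, was at 249, 326, 296 and 332 in CBM, TBM, CS and TS, and the phosphofructokinase subunits were at 43.1 to 53.2 for Pfkl, 28.9 to 39.7 for Pfkp and 11.0 to 13.1 for Pfkm. Pfkfb3, which makes the activator of phosphofructokinase, ranged from 16.6 to 22.5. In the lower pathway, Aldoa ranged from 165 to 212, Tpi1, triose phosphate isomerase, from 196 to 259, and Pgk1, phosphoglycerate kinase, from 181 to 284. Tpi1 and Pgk1 were higher in both tumor-bearing libraries, with intervals of the ratios above 0, whereas those of Aldoa held 0.

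Hif1a, the oxygen-regulated subunit of hypoxia-inducible factor, was at 29.7, 31.2, 34.1 and 29.1 CPM in CBM, TBM, CS and TS of the stem class, and its ratios of tumor-bearing over control had intervals that held 0. Its protein is regulated by degradation, which RNA counts do not show. Pdk1, a kinase that limits the entry of pyruvate into mitochondria, was at 51.4, 51.0, 40.4 and 36.6. The mitophagy receptors Bnip3 and Bnip3l ranged from 14.8 to 19.4 and from 83.1 to 115, both with TS lowest and CBM highest. Egln3, a prolyl hydroxylase that marks hypoxia-inducible factor for degradation, was at 23.2, 33.0, 26.9 and 29.0. P4ha1, a collagen prolyl hydroxylase subunit, ranged from 16.9 to 19.5, Vegfa, a growth factor for vessels, from 8.62 to 16.4, the lactate exporter Slc16a3 from 3.59 to 4.81, and Ankrd37 from 2.39 to 4.08.

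Other measures moved with the libraries in the same cells. The 20 genes of a dissociation and immediate-early list summed to 10000, 10938, 14476 and 14206 CPM in CBM, TBM, CS and TS of the stem class. The 14 S-phase genes summed to 1727, 1756, 1701 and 2192, and the 14 genes of G2 and mitosis to 1446, 1531, 1750.0 and 2045, both highest in TS. Their part in the differences above was not tested, and in bulk sums a change in the mix of cells and a change per cell cannot be told apart.

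Over the named classes, the stem class included, the sum of the 31 genes was higher in the tumor-bearing library in 7 of 7 in TS over CS and in 8 of 9 in TBM over CBM. In TS over CS the log2 ratios ran from 0.03 in megakaryocyte-like cells (interval -0.00 to 0.06) and 0.05 in mast or basophil-like cells (-0.04 to 0.13) to 0.48 in T, NK or innate lymphoid-like cells (0.43 to 0.52). In TBM over CBM they ran from -0.09 in B lineage-like cells (-0.18 to -0.00) to 0.54 in monocyte-like cells (0.52 to 0.56). Monocyte-like cells of CBM were mostly of a cluster led by Lyz2, S100a4 and Fn1 and those of TBM of a cluster led by Chil3 and Fn1, so this ratio compares different clusters. Within single clusters the sum was higher in 12 of 13 in TS over CS and in 10 of 11 in TBM over CBM. These counts take any difference. In TS over CS the intervals held 0 in the unnamed cluster 4 and in both Pf4-led megakaryocyte-like clusters. The lower cluster, with 519 CS and 137 TS cells, was at -0.11 (-0.14 to -0.07). In free RNA the sum was at 3426, 4677, 2778 and 3272 CPM in CBM, TBM, CS and TS, also higher in each tumor-bearing library. The part of free RNA in these ratios was not tested.

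The sum of the lactate and pyruvate genes was higher in the tumor-bearing library in 7 of 7 classes in TS over CS, with log2 ratios from 0.12 to 0.73, and in 9 of 9 in TBM over CBM, from 0.02 to 0.96. The sum of the glucose transporters was lower in 6 of 7 classes in TS over CS, and higher in 5 of 9 in TBM over CBM. The sum of the hypoxia response genes was lower in 6 of 7 classes in TS over CS and higher in 5 of 9 in TBM over CBM. Bnip3l made up most of this sum in hemoglobin-rich cells, at 230 of 244 CPM in CS and 173 of 190 in TS. In early erythroid-like cells Bnip3l was at 123 of 160 in CS and 122 of 153 in TS. In mast or basophil-like cells of CS, Ddit4 and Bnip3l were at 288 and 170 of 526. The dissociation list was higher in 4 of 7 classes in TS over CS and in 8 of 9 in TBM over CBM, and its part in the counts above was not tested.

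Ldha itself was higher in TS than in CS in 7 of 7 classes, and in TBM than in CBM in 8 of 9. In granulocyte-monocyte progenitor-like cells it was at 418, 724, 461 and 880 CPM in CBM, TBM, CS and TS, with ratios of 0.93 in TS over CS and 0.79 in TBM over CBM. The Elane-led cluster held 193 of the CBM, 579 of the TBM, 38 of the CS and 199 of the TS cells of this class, 57 CS cells came from a cluster of few UMIs led by Tsix and Mpo, and 352 TBM cells from a second cluster of few UMIs. The median UMIs per cell were 4301 in CS and 32715 in TS. In monocyte-like cells Ldha was at 279 in CBM and 626 in TBM (log2 ratio 1.17), and in T, NK or innate lymphoid-like cells at 352 in CS and 555 in TS. Megakaryocyte-like cells, where Ldha was high in all libraries at 664, 774, 616 and 676, had ratios of 0.13 in TS over CS and 0.22 in TBM over CBM, and the single class with a lower value was B lineage-like, at 148 in TBM and 152 in CBM.

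In the granulocyte-monocyte progenitor-like class, 5 of 22 members were at least 1.5-fold higher in TS over CS, Pfkp, Tpi1, Pgam1, Ldha and Egln3, where 10.8% of all genes were, and 0 of 22 were lower, where 12.7% were. In TBM over CBM, Ldha was higher and Hk2 lower, 1 of 22 each, where 2.29% and 1.71% of all genes were. Hk2 was at 84.1, 51.6, 60.9 and 44.3 CPM in CBM, TBM, CS and TS of this class.

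Monocyte-like cells had 7 of 18 members at least 1.5-fold higher in TBM over CBM, Tpi1, Pgk1, Pgam1, Eno1, Pkm, Ldha and Slc16a1, where 7.31% of all genes were, and 1 of 18, Hk2, lower, where 8.7% were. Gapdh was at 1378 and 1974 CPM in CBM and TBM, Pgam1 at 458 and 715, and Hk2 at 129 and 58.1. The clusters behind this class differed between the libraries, as given above, and so did those of the mast or basophil-like class, where a cluster led by Ccl3, Ccl4 and Ccl6 held 415 CBM, 18 TBM, 283 CS and 6 TS cells and one led by Prss34, Mcpt8 and Fcer1a held 28, 423, 3 and 55. That class had 5 of 20 members higher and 3 of 20 lower in TBM over CBM, where 11.9% and 13.8% of all genes were. In TS over CS it had 4 of 20 higher and 7 of 20 lower, where 12.3% and 18.1% were. Among the lower ones Hif1a was at 28.0 in TS, with 10 UMIs in 70 cells (interval 13.4 to 51.5), and at 47.2 in CS (38.0 to 58.0), and these intervals overlap. Slc2a1 and Pfkfb3, also lower, had 6 and 10 UMIs in TS.

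Eosinophil-like cells, 50 in CBM and 86 in TBM, had Gapdh, Pgam1, Eno1, Pkm, Slc16a1 and Hif1a at least 1.5-fold higher in TBM, 6 of 21 where 7.37% of all genes were, and Hk2 lower, 1 of 21 where 6.74% were. Gapdh was at 687 in CBM and 1228 in TBM and Pkm at 173 and 366. Among the 10 leading genes of this cluster, 3 were eosinophil markers and 3 were mast cell markers.

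T, NK or innate lymphoid-like cells, 123 in CS and 138 in TS, had 7 of 22 members higher in TS, Tpi1, Gapdh, Pgk1, Pgam1, Ldha, Vegfa and Egln3, where 10.1% of all genes were, and 4 of 22 lower, Slc2a3, Pfkfb3, Eno1 and Ddit4, where 17.3% were. Gapdh was at 674 and 1076 CPM in CS and TS, and Egln3 at 12.1 and 43.0 (log2 ratio 1.83). In the other direction Slc2a3 was at 47.3 and 18.6 and Ddit4 at 43.3 and 13.8. Eno1 was at 55.4 and 26.8, and Pfkfb3 at 48.8 and 30.4, also lower in TS.

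Early erythroid-like and megakaryocyte-like cells had at most 1 member past 1.5-fold in each direction between tumor-bearing and control libraries. In early erythroid-like cells TS over CS had 0 of 13 higher and 1 of 13, Eno1, lower, where 0.838% and 1.73% of all genes were, and TBM over CBM had 0 of 16 higher and 1 of 16, Pkm, lower, where 3.06% and 8.89% were. Eno1 counted together with its copy Eno1b was under 1.5-fold in TS over CS of early erythroid-like cells. The class was filled differently in the libraries. The cluster led by Apoe, Gm15915 and Scin, with Mki67 also among its leading genes, held 519 CS and 137 TS cells. Another cluster held 51 CS and 1004 TS cells. In the BM the Apoe-led cluster held 56 of 93 CBM and 6 of 54 TBM cells of the class, so TBM over CBM also compares different clusters. In hemoglobin-rich cells Gpi1, Aldoa, Pgk1 and Ldha were higher in TS over CS, 4 of 10 where 12.3% of all genes were, and 0 of 10 were lower, where 4.53% were. These calls rest on few UMIs in 58 TS and 64 CS cells, 32 and 23 for Gpi1, 51 and 39 for Aldoa and 39 in each for Pgk1. Hemoglobin took a smaller share of the UMIs in each tumor-bearing library than in its control, as given above, and its part in these calls was not tested. Gpi1, Pkm and Ldha were higher in hemoglobin-rich cells in TBM over CBM, 3 of 12 where 6.63% of all genes were, and 0 of 12 were lower, where 2.6% were. Megakaryocyte-like cells had Eno1 lower in TS over CS, 1 of 18 where 2% of all genes were, 0 of 18 higher, where 3.13% were, and in TBM over CBM 0 of 19 members higher and 0 of 19 lower, where 2.02% and 1.52% were.

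B lineage-like cells of the BM, 246 in CBM and 168 in TBM, had the lowest levels of Ldha outside hemoglobin-rich cells, and were the class whose sum was lower in the tumor-bearing library. Ddit4 was higher in TBM, at 95.4 against 38.3 CPM, and Pdk1 lower, each 1 of 17 members, where 9.78% and 13.8% of all genes were higher and lower. The S-phase genes of this class had a log2 ratio of -0.92 and the genes of G2 and mitosis one of -0.73 in TBM over CBM, and their part in the lower sum was not tested.

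The balance of the lactate dehydrogenase subunits differed between tumor-bearing and control libraries in stem and multipotent progenitor-like, granulocyte-monocyte progenitor-like and monocyte-like cells. Ldhb made up 15.6% of the Ldha and Ldhb UMIs of stem-class cells in CBM (interval 14.6 to 16.7), 7.83% in TBM (7.25 to 8.43), 13.2% in CS (11.5 to 15.1) and 4.27% in TS (3.85 to 4.72). In granulocyte-monocyte progenitor-like cells the share was 12.0%, 6.02%, 11.4% and 4.77% in CBM, TBM, CS and TS. In monocyte-like cells it was 14.2% in CBM and 5.49% in TBM. The intervals of tumor-bearing and control libraries did not overlap in any of these pairs.

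Within single clusters the share of Ldhb was lower in the tumor-bearing library in 6 of 13 in TS over CS and in 10 of 11 in TBM over CBM. In the Hlf-led cluster the share of Ldhb was 17.8%, 9.24%, 14.4% and 8.24% in CBM, TBM, CS and TS. In the unnamed cluster 8, led by Mpo, F13a1 and Ly6c2, it was 11.0%, 4.09%, 13.3% and 4.09%, and in T, NK or innate lymphoid-like cells it was 5.80% in CS and 2.50% in TS. It was higher in the tumor-bearing library in the unnamed cluster 4, at 0.891% in TS and 0.556% in CS, and in the unnamed cluster 6, at 2.59% in TBM and 0.546% in CBM. Over the named classes Ldhb had the lower share in the tumor-bearing library in 9 of 9 in TBM over CBM and in 4 of 7 in TS over CS, with intervals apart in 3 of each. These counts, like those of clusters, take any difference, and eosinophil-like cells, counted as lower, were at 7.51% in both BM libraries once rounded. Megakaryocyte-like cells were at 1.22% to 1.57%, and early erythroid-like cells at 1.22% or less. Free RNA had a share of 8.90%, 5.75%, 2.30% and 1.46% in CBM, TBM, CS and TS, lower in each tumor-bearing library too, and its part in the shares of the cells was not tested.

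**Figure D4:**
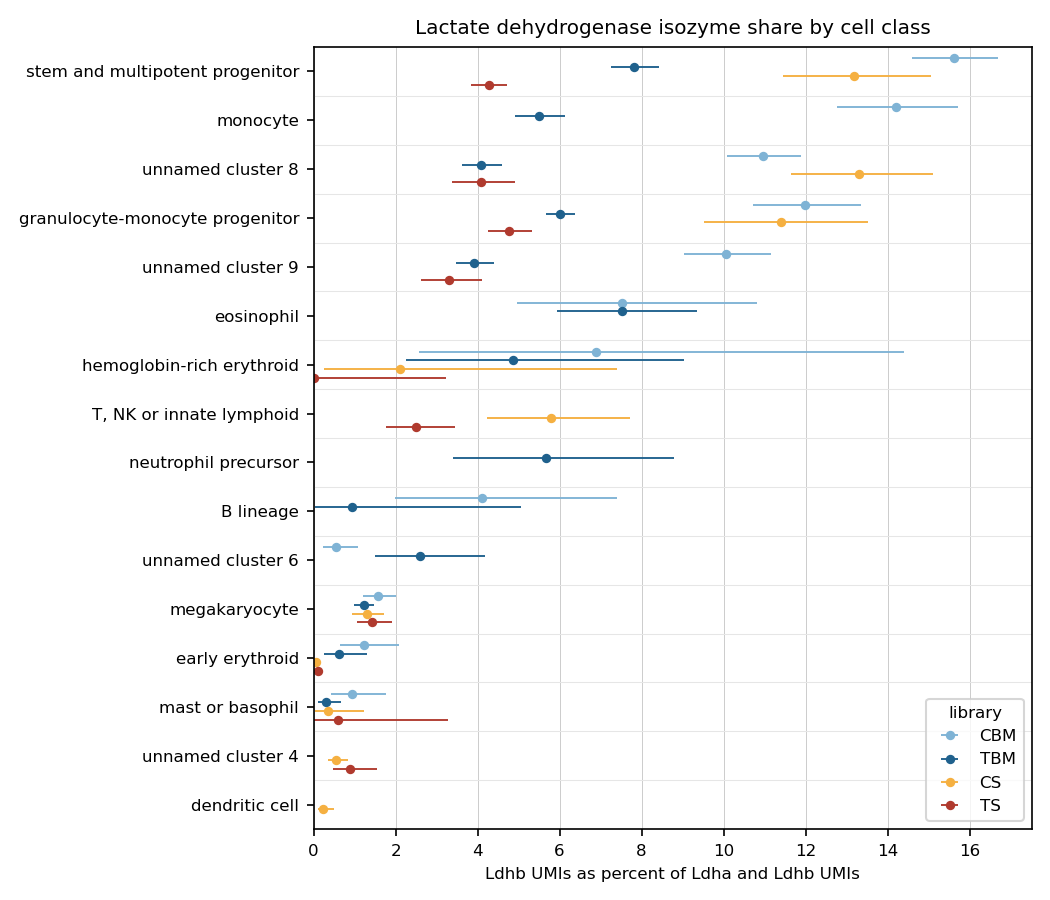
Ldhb UMIs as percent of all Ldha and Ldhb UMIs (horizontal axis, from 0) for each cell class or unnamed cluster, 1 point per library with its exact 95% binomial interval. In stem and multipotent progenitor-like cells CBM and CS lie at 15.6% and 13.2% and TBM and TS at 7.83% and 4.27%, while megakaryocyte-like cells stay below 2% in every library.

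The shares of other isozymes were taken in the same way. Hk2 made up 46.8%, 47.7%, 41.8% and 34.0% of the Hk1 and Hk2 UMIs in CBM, TBM, CS and TS of the stem class, with the TS interval (31.8 to 36.3) apart from the rest. It was lower in TS than in TBM in 6 of 6 classes, with intervals apart in 5, and lower in TS than in CS in 6 of 7, with intervals apart in 3. In free RNA Hk2 was at 69.6, 59.5, 23.5 and 18.3 CPM in CBM, TBM, CS and TS. Hk1 was at 51.1, 59.8, 85.5 and 112 there, so free RNA differed in the same direction. The part of free RNA in the Hk2 shares of the cells was not tested. Pfkp, the platelet type of phosphofructokinase, had a higher share of the UMIs of Pfkl, Pfkm and Pfkp in TS than in CS in 7 of 7 classes and in TBM than in CBM in 8 of 9, with intervals apart in 1 of each. Slc2a3 was 90.2%, 86.6%, 91.0% and 76.1% of the UMIs of both glucose transporters in the stem class.

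Among cell classes, single members stood far above their usual level. For each class, the member with the highest level relative to its median over classes was named, as the median over the libraries of the class. A member named in this way need not have its highest level in that class. In stem and multipotent progenitor-like cells this was Slc2a3, at 93.3 CPM beside a median class at 26.5, and in megakaryocyte-like cells it was Slc2a3 too, at 106. Slc2a3 was higher still in neutrophil precursor-like cells, at 193.5, and in mast or basophil-like cells, at 192.3. Mast or basophil-like cells had Ddit4 at 265, beside a median class at 13.7, and Ddit4 was also the leading member in eosinophil-like cells at 49.99 and in B lineage-like cells at 66.8. The 55 neutrophil precursor-like cells of TBM had Slc16a3, a transporter that exports lactate, at 96.0, beside a median class at 4.71, and monocyte-like cells had it at 20.5.

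Erythroid cells had a distinct set. Hemoglobin-rich cells had Slc16a1 at 159.7 and Bnip3l, which clears mitochondria from maturing red cells, at 230.3 CPM, each the highest of any named class, while Pkm was at 18.3, beside 29.9 in early erythroid-like cells and 741 in neutrophil precursor-like cells. Early erythroid-like cells were led by Pfkm, the muscle type of phosphofructokinase, at 20.7, and hemoglobin-rich cells had it at 23.9. Granulocyte-monocyte progenitor-like cells were led by Ldhb at 51.7, T, NK or innate lymphoid-like cells by Egln3 at 27.6 and dendritic cell-like cells by Aldoc at 5.51. Egln3 was also at 28.8 in granulocyte-monocyte progenitor-like and 27.9 in stem and multipotent progenitor-like cells, and Aldoc at 6.29 in neutrophil precursor-like cells.

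Genes of oxygen sensing and glucose uptake had their own order over classes. Hif1a ranged from 54.9 CPM in B lineage-like and 53.5 in granulocyte-monocyte progenitor-like cells to 15.1 in early erythroid-like and 4.81 in hemoglobin-rich cells. Slc2a1 was highest in mast or basophil-like cells at 25.2 and lowest in hemoglobin-rich cells at 0.651, and Pfkfb3 was highest in T, NK or innate lymphoid-like cells at 39.6 and in B lineage-like cells at 37.7. Vegfa was at 44.1 in B lineage-like and 42.0 in granulocyte-monocyte progenitor-like cells and at 2.70 in monocyte-like cells. B lineage-like cells thus had the highest class medians of Hif1a and Vegfa and, apart from hemoglobin-rich cells, the lowest of Ldha, at 149.9 against 669.7 in megakaryocyte-like cells. Their Hif1a intervals, 43.4 to 67.4 in CBM and 39.5 to 75.3 in TBM, held the 53.5 of granulocyte-monocyte progenitor-like cells. Against those cells Vegfa was lower in CBM, at 37.0 against 51.8, and higher in TBM, at 51.2 against 40.5.

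**Figure D5:**
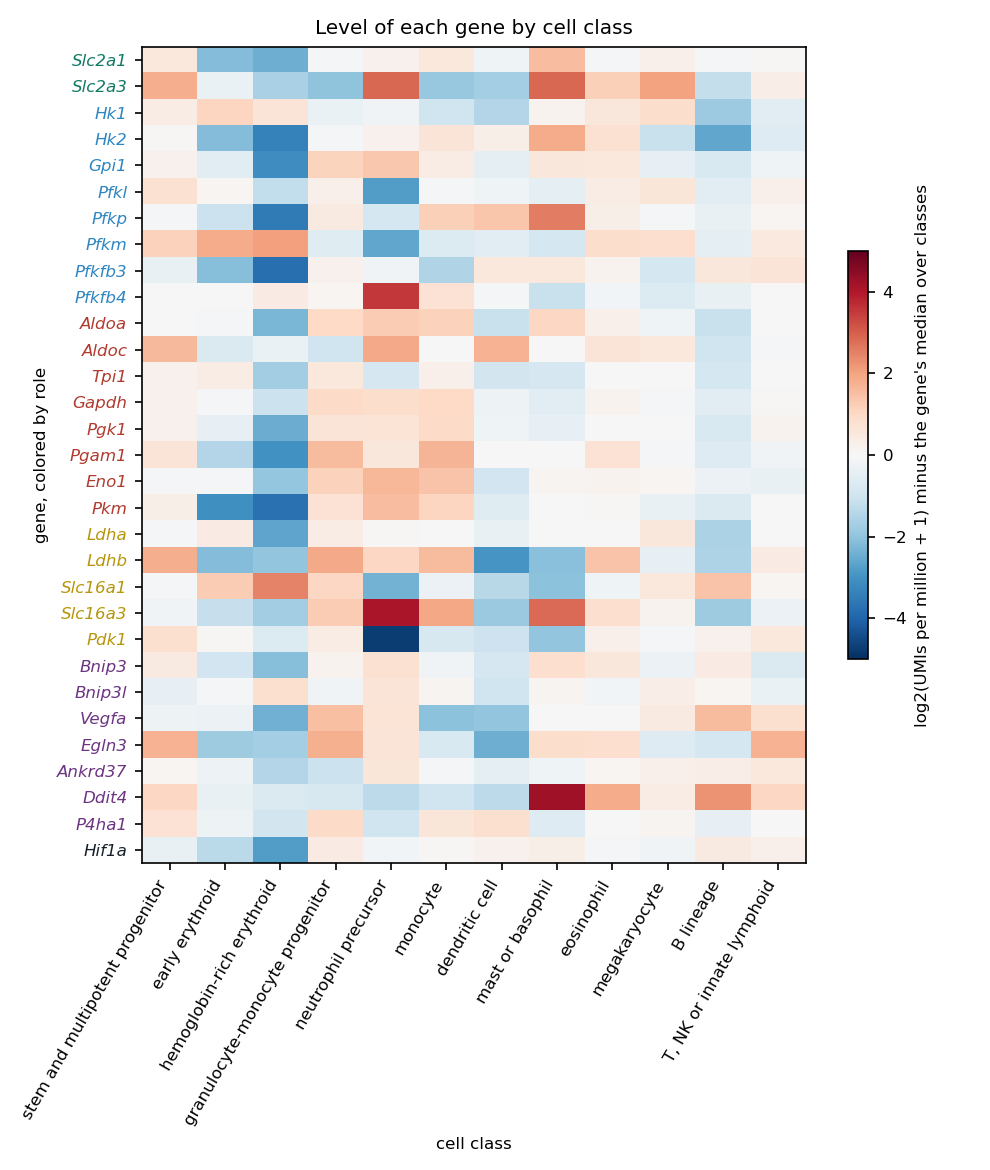
Level of each gene in the named cell classes as log2 of CPM plus 1 (median over libraries) minus the gene's median over classes, with genes in rows and classes in columns, red above and blue below the median. Values run from -4.76 to 4.22, and the hemoglobin-rich column is blue for most genes, with Slc16a1, Bnip3l, Pfkm, Hk1 and Pfkfb4 as exceptions.

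Over the 45 pairs of a class or unnamed cluster and a library with at least 50 cells, the members did not vary as 1 group. Spearman's correlation of a member's log2 level with the sum of the other members was 0.91 for Pkm and for Pgam1, 0.90 for Pgk1 and 0.89 for Gpi1. It was -0.62 for Bnip3l, -0.61 for Pfkm and -0.48 for Hk1. Pfkm and Hk1 were high in both erythroid classes. Bnip3l was high in hemoglobin-rich cells, at 230 CPM, but not in early erythroid-like cells, at 124, beside 166 in megakaryocyte-like cells. The 5 genes outside the list whose levels were most like the member sum, of 6137 genes compared, were Aprt (0.93), Lamtor4 (0.91), Pgd (0.90), Tmed3 (0.90) and Tmem38b (0.89), of which Pgd encodes an enzyme of the pentose phosphate pathway. These pairs share libraries, depth and lineage, and the values are a description.

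Related pathway lists were measured in the same stem-class cells, where the members that passed the filter had median log2 ratios of 0.07 in TS over CS and 0.23 in TBM over CBM. Of 18 other glycolytic isozymes 1 passed the filter, Hk3, a hexokinase of myeloid cells, at 37.6, 24.4, 44.3 and 21.1 CPM in CBM, TBM, CS and TS. Its log2 ratio was -1.07 in TS over CS (interval -1.36 to -0.77) and -0.63 in TBM over CBM (-0.83 to -0.43). All 7 pentose phosphate genes passed the filter and 0 were past 1.5-fold in either comparison, with median log2 ratios of 0.23 in TS over CS and 0.16 in TBM over CBM. Of 7 oxygen-sensing genes, which include the hydroxylases and the ubiquitin ligase subunit that act on hypoxia-inducible factor, 2 passed the filter in TS over CS and 3 in TBM over CBM, with 0 past 1.5-fold and medians of 0.35 and 0.02. Of 14 other targets of hypoxia-inducible factor, 8 and 9 passed and 0 were past 1.5-fold, with median log2 ratios of 0.24 in TS over CS and 0.08 in TBM over CBM. Among all genes tested 4.25% were higher and 4.99% lower in TS over CS, 1.82% and 1.33% in TBM over CBM, and the medians were 0.01 and 0.02, so counts of 0 in lists this short are near the background.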

How the data were processed

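The deposited values are counts: whole-number UMIs per gene and barcode for all barcodes of 4 libraries (3′ v3.1 droplet chemistry), which the authors made with Cell Ranger, without normalization or cell calling. The submitters' processing notes name Cell Ranger 4.0 and mm10. The study then subtracted 10% ambient RNA with SoupX and excluded barcodes with fewer than 350 genes. Neither step is in the deposited counts.

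Here barcodes with at least 1000 genes and at most 10% mitochondrial UMIs were kept. The 31 members were left out of clustering on 3000 variable genes, 50 principal components and 20 neighbors at a resolution of 1.2 (scanpy 1.11.5, igraph 0.11.9, numpy 2.4.6, scipy 1.17.1, pandas 2.3.3, Python 3.11.15, and matplotlib 3.10.9 for figures). Clusters were named from marker lists when at least 3 markers were detected and the leading 10 genes did not go against the name. Names were given only as resembling a type.

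UMIs were summed over the cells of a class (at least 50) and library, from 3343510 UMIs in the CS to 15187441 in the TBM stem class, and scaled to 1000000 (CPM). Levels had exact Poisson, log2 ratios exact conditional and shares exact binomial 95% intervals. A gene was called past 1.5-fold if it had a mean of 20 CPM and 50 UMIs over both libraries. A gene at 0 was set to 3 counts. Free RNA came from barcodes with at most 100 UMIs. Sequences came from RefSeq tables of GRCm38.p6. The procedure was tested on simulated data.

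In the stem class, members past 1.5-fold were named for each comparison, at most 6 in each direction. Across classes, the member highest relative to its median class was named, with a fixed set of 7 (Hif1a, Slc2a1, Ldha, Ldhb, Pfkfb3, Vegfa and Ddit4). From other lists, members past 2-fold were named, and the 5 genes most like the sum. All members are otherwise given by level or range, and members whose values are printed for other classes were picked with those values known. The members and lists were chosen with earlier results of these data known. Alternatives changed the scaling, ambient RNA, cell filters, clustering, cell weights, doublets and call rule. The Hlf-led and the Cd34- and Pimreg-led cluster alone, and leaving out clusters of few UMIs, were added after seeing the data.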

Additional observations from a re-analysis of the deposited data

Results flagged for a closer look

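Eno1 had opposite directions in the 2 tissues in 3 classes, counting those where both intervals lay apart from 0 and at least 1 of the ratios was past 1.5-fold. Its log2 ratio was -0.42 in TS over CS and 0.66 in TBM over CBM in stem and multipotent progenitor-like cells, -0.61 and 0.50 in early erythroid-like cells, and -0.93 and 0.30 in megakaryocyte-like cells. It was also -0.51 and 0.55, both under 1.5-fold, in the unnamed cluster 8, and -0.24 (interval -1.05 to 0.48) and 0.89 in mast or basophil-like cells. In the first 3 classes Eno1b, the near-identical copy, took a higher share of the UMIs of both genes in CBM and TS than in TBM and CS, at 11.5%, 5.86%, 6.80% and 14.1% in CBM, TBM, CS and TS of the stem class. Both genes together kept the opposite directions, at 40.2, 59.6, 61.6 and 49.9 CPM in the stem class, 47.0, 62.1, 64.0 and 45.2 in early erythroid-like cells and 63.7, 72.9, 63.4 and 37.8 in megakaryocyte-like cells, in the same order of libraries. Counted together they were under 1.5-fold in both tissues in the stem class and in early erythroid-like cells. In megakaryocyte-like cells they were past 1.5-fold in TS over CS only.

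Ddit4 in stem and multipotent progenitor-like cells also went opposite ways, with a log2 ratio of -0.37 in TS over CS and 0.87 in TBM over CBM. Its levels were 16.5, 30.2, 34.7 and 26.9 CPM in CBM, TBM, CS and TS. With 1 library per group, the differences between tissues were not tested for either gene.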

How the results depend on the processing

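Sums over the 31 genes for tumor-bearing over control stayed above 0 in 138 of 148 alternatives over all classes. In the stem class the sum of TS over CS (0.34) was 0.31 without hemoglobin, mitochondrial and ribosomal protein genes in the total, 0.12 with at least 350 genes and new clusters, 0.28 with cells of equal weight, 0.11 in the Hlf-led cluster and 0.44 in the Cd34- and Pimreg-led cluster. TBM over CBM (0.37) was 0.34, 0.28, 0.27, 0.25 and 0.54 under the same settings. CS over CBM (0.23) was 0.18, 0.27, 0.18, 0.14 and 0.27, and 0.29 with ambient RNA subtracted. TS over TBM (0.21) was 0.15, 0.10, 0.19, 0.0049 and 0.17, 0.29 with ambient RNA subtracted and 0.18 with median-of-ratios scaling.

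Counts of members past 1.5-fold in the stem class moved more. The share of all genes past the same fold is not given for the single clusters and other settings, so these counts cannot be set against a background. Higher in TS over CS (3) became 1 with at least 350 genes, 1 at 2-fold and 1 in the Hlf-led cluster, and lower (2) became 0 at a mean of 100 CPM, 1 at 2-fold and 4 in the Hlf-led cluster. The Cxcl2-led cluster had 1 higher and 3 lower in TS over CS, and the Cd34- and Pimreg-led cluster 4 and 3. Higher in TBM over CBM (4) became 2 with equal weight, 2 at a mean of 100, 0 at 2-fold, 1 in the Hlf-led cluster and 8 in the Cd34- and Pimreg-led cluster, and lower (0) became 1 with at least 350 genes and 1 in the Cd34- and Pimreg-led cluster. Higher in CS over CBM (2) became 1 with equal weight, 0 at a mean of 100, 1 at 2-fold, 0 in the Hlf-led and 5 in the Cd34- and Pimreg-led cluster, and lower (0) became 3 without a level filter. Higher in TS over TBM (0) became 2 with ambient RNA subtracted and 2 in the Hlf-led cluster. Lower in TS over TBM (1) became 2 with at least 350 genes, 2 with equal weight, 5 without a filter, 0 at a mean of 100, 0 at 2-fold, 2 in the Hlf-led (Hk2 and Eno1, not Slc2a3) and 0 in the Cd34- and Pimreg-led cluster. The number of classes with a higher sum became 5 in CS over CBM (3) with at least 350 genes, and 2 in TS over TBM (4) without hemoglobin, mitochondrial and ribosomal protein genes and with median-of-ratios scaling.

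In granulocyte-monocyte progenitor-like cells equal weight moved TS over CS from 0.44 to 1.05 and CS over CBM from -0.05 to -0.61. Some ratios changed direction. TS over CS became -0.071 in mast or basophil-like cells with at least 350 genes and -0.056 in megakaryocyte-like cells with equal weight. CS over CBM became -0.023 in hemoglobin-rich cells with median-of-ratios scaling, 0.080 and 0.074 in granulocyte-monocyte progenitor-like cells with at least 350 genes and with a doubled cluster resolution, and 0.0035, 0.042 and 0.12 in megakaryocyte-like cells with ambient RNA subtracted, with at least 350 genes and with equal weight. TS over TBM became -0.028 and -0.10 in hemoglobin-rich cells without those genes and with median-of-ratios scaling, -0.070, -0.096 and -0.0002 in granulocyte-monocyte progenitor-like cells under these settings and without clusters of few UMIs, and 0.069 in megakaryocyte-like cells with at least 350 genes. The cause of these changes was not tested. No paired analysis was possible because each group had 1 library, so depth sets the counting error and nothing measures the spread between mice.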

Other observations

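Some glycolytic isozymes outside the list were present in single classes. Pklr, the pyruvate kinase of liver and red cells, was at 32.3, 42.2, 29.2 and 26.8 CPM in CBM, TBM, CS and TS of early erythroid-like cells. Bpgm, which makes a regulator of oxygen release from hemoglobin, was at 100.8, 111, 97.8 and 35.9 CPM in hemoglobin-rich cells. Hk3 was at 123 CPM in the neutrophil precursor-like cells of TBM. Ldhc, a lactate dehydrogenase best known from the testis, was at 25.0, 24.5, 9.35 and 36.4 CPM in mast or basophil-like cells, and at 12.5 CPM in CBM and 63.1 CPM in TBM of eosinophil-like cells, with 10 and 109 UMIs.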
